A study of Rattus norvegicus with 71 samples.

Results

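Rat cortical cultures kept in 10 µM cypermethrin were compared with cultures of the same compound series at 0 µM. The members are the 3 libraries whose title names cypermethrin at 10 µM and the 2 whose title names it at 0 µM, 5 of the 71 libraries in the series. Primary cortical cells were plated at 150000 per well on multi-well microelectrode arrays, dosed with compound or vehicle from 2 h after plating, re-dosed at media changes on days 5, 7 and 9 in vitro, and collected on day 12. Each library pooled 2 to 3 wells treated alike, and the series covered 6 compounds with separate 0 µM libraries, on 2 separate cultures per the labels. All of these libraries share this protocol of plating, arrays and media changes, and the 0 µM cultures received vehicle, whose identity the labels do not give. The question was which expressed genes differ at 10 µM, and which of those differences are seen in both sequencing projects, named GRC321 and GRC327 in the titles.

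Cypermethrin is a type II pyrethroid insecticide. Pyrethroids bind the voltage-gated sodium channels that start the nerve impulse and slow their closing, so that neurons fire in long trains or stay depolarised. In cultured cortical networks the compound is known for altering spontaneous firing, and firing in turn drives immediate early transcription factors such as Fos and Egr3 and, after them, genes for synaptic and secreted proteins such as Bdnf and Nptx2. Deltamethrin is a close analog that carries bromine where cypermethrin carries chlorine.

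Expected read counts per gene were tested with the edgeR quasi-likelihood test, in 1 model over all 71 libraries with a project term for each compound, and levels are given as CPM (counts per 1e6) scaled by TMM. The 5 libraries held 8.45 to 12.75 M counts (M, 1e6 counts), within 5.2 to 43.1 M over the series. The cultures are labelled cortical neurons, but glial markers were plentiful beside the neuronal ones: summed astrocyte markers reached 4260 to 5770 CPM at 10 µM and 5040 to 5230 CPM at 0 µM, while pan-neuronal markers reached 12000 to 14400 CPM at 10 µM and 12100 to 14100 CPM at 0 µM. Microglial markers summed to at most 0.865 CPM at 10 µM and 0.839 CPM at 0 µM. The project term does not describe every difference between libraries. The Y-linked gene Eif2s3y lay between 0 and 0.644 CPM in the GRC327 libraries with title numbers 1 to 23, but between 50.3 and 90.6 CPM in those numbered 24 to 47 and between 37.7 and 66.2 CPM in GRC321. The Y-linked gene Ddx3y was scarce everywhere and did not separate them, at 0.6 to 1.66, 0.768 to 1.9 and 0.194 to 1.37 CPM in the same order. The 10 µM libraries come 1 from each of these 3 library series: replicate 1 from GRC321, replicate 2 from the lower-numbered (earlier) GRC327 series and replicate 3 from the higher-numbered (later) one. Earlier and later name the order of the title numbers alone here, as the titles give no date of culture or sequencing. The 0 µM libraries are replicate 1 from GRC321 and replicate 2 from the later GRC327 series, and no 0 µM library of cypermethrin from the earlier series was analysed here. The GRC321 0 µM library also stood apart: 58.2% of tested genes lay outside the range of the other 4 GRC321 0 µM libraries, against 27.3% to 42.2% when each of those was set against the rest. The library series and this measure were chosen after the data were seen.

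Every 10 µM library was above both 0 µM libraries for the potassium channel genes Kcnn1 and Kcnq3, the activity-induced transcription factor Egr3 and the kinase gene Camkk1, and below both for the calretinin gene Calb2 and the myelin lipid gene Ugt8. These 6 were picked here after their values were seen, and none of them passed the test. The 3 and 2 libraries were apart in this way for 10.2% of all tested genes (5.41% higher and 4.8% lower). Of 15343 tested genes, 0 passed an adjusted p of 0.05 (Benjamini-Hochberg), a background of 0%, and the smallest adjusted p was 0.44. At an unadjusted p under 0.05 there were 1105 genes (7.2%), 524 higher (3.42%) and 581 lower (3.79%) at 10 µM. DESeq2 called 1 gene (AC133270.1, higher) and limma 0. The log2 fold change of AC133270.1 was an extreme 23.3 with DESeq2, against 7.66 with an unadjusted p of 0.128 in the edgeR test.

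The count depended on which 0 µM library was kept. Without 0 µM replicate 2, which leaves the GRC321 library as the only control, 386 genes passed, 195 higher and 191 lower. Without 0 µM replicate 1, the GRC321 library, 0 passed and 232 had an unadjusted p under 0.05. Of the 1105 genes with an unadjusted p under 0.05, 86% had their GRC321 0 µM value outside the other 4 GRC321 0 µM libraries, against 58.2% of all tested genes. The part of this library in the values that follow was not tested beyond these counts, and the levels of the other GRC321 0 µM libraries are given beside several of the genes.

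Leaving out genes without a symbol and those under 0 in mean log2 CPM, the 12 genes of smallest p were 5 higher (Tmco3, Phyhip, Camkk1, Pianp and Isl1) and 7 lower (Rxylt1, Ndufaf7, Chn2, Pcdhb9, Rala, Maats1 and Ccnt1) at 10 µM. In 11 of the 12 the 3 and 2 libraries did not overlap, which was so for 10.2% of all tested genes (5.41% higher and 4.8% lower at 10 µM). Because the 12 were chosen by p in this same comparison, their separation follows largely from that choice and is no separate evidence. In 11 of the 12 the GRC321 0 µM library lay outside the other GRC321 0 µM libraries.

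**Figure D1:**
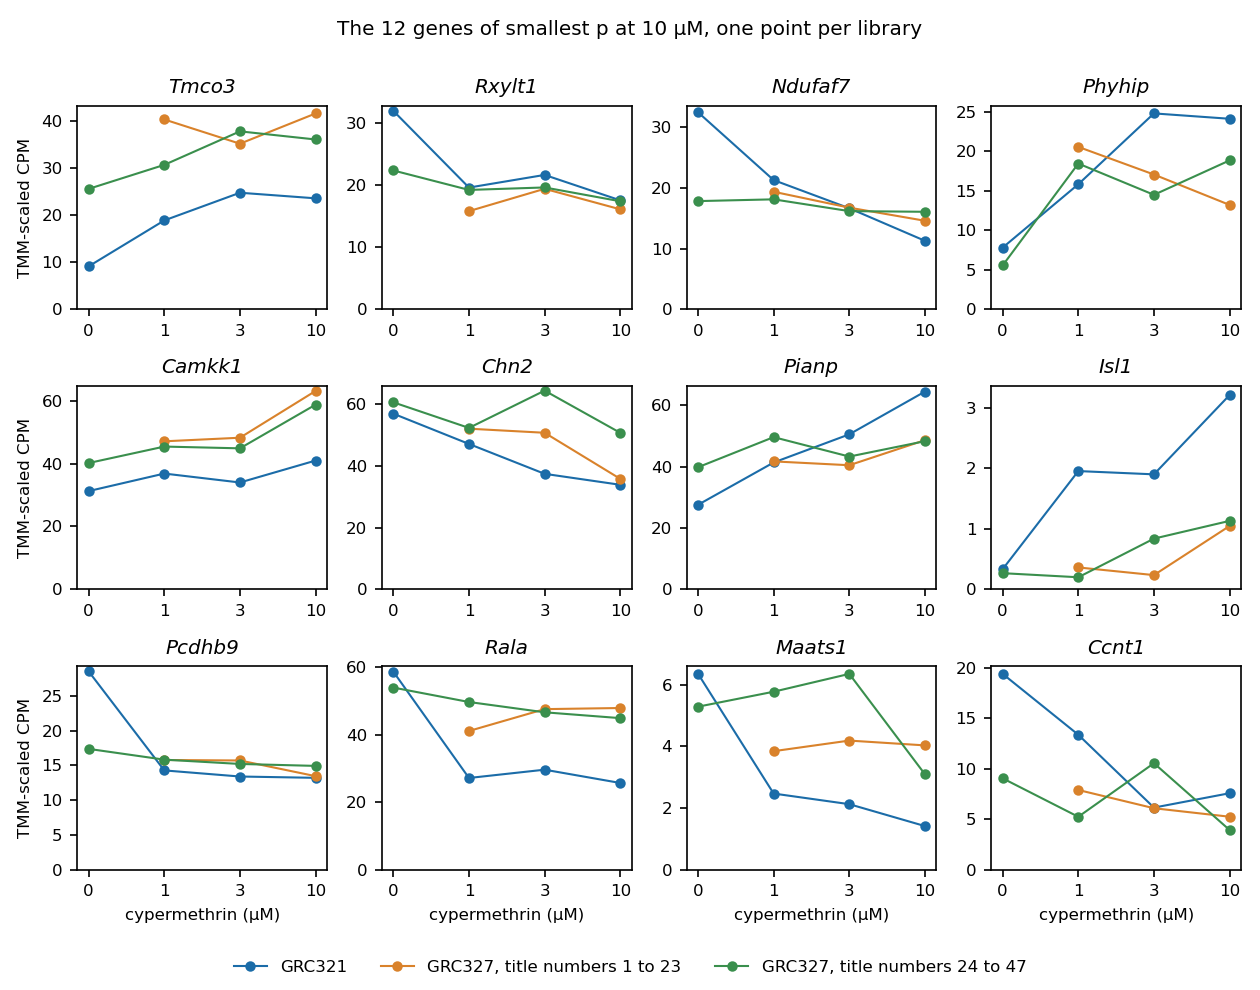
Expression of the 12 genes of smallest p, as TMM-scaled CPM, against cypermethrin concentration in µM. Each point is 1 library and lines join libraries of 1 library series; from the lower-numbered GRC327 series no 0 µM library was analysed here. In Tmco3, Rxylt1, Ndufaf7 and Pcdhb9 the GRC321 0 µM point stands away from all the others.

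Tmco3, a member of the monovalent cation antiporter family, had 23.6, 41.7 and 36.1 CPM in the 10 µM libraries (replicates 1 to 3, in this order throughout), against 9.15 and 25.6 CPM at 0 µM (replicates 1 and 2). The GRC321 0 µM library was by far the lowest, and the 10 µM GRC321 library lay under the 0 µM GRC327 one, so the groups overlapped. The fitted log2 fold change was 0.90 ± 0.21 (SE). The other GRC321 0 µM libraries held 22.7 to 29.9 CPM, close to the 10 µM library of that project. Its gene model overlaps Dcun1d2, and whether reads were counted by strand is not given in the sources used here.

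Rxylt1, a xylosyltransferase that builds the sugar chain of dystroglycan, stood at 17.6, 16.1 and 17.4 CPM at 10 µM, against 32.0 and 22.4 CPM at 0 µM. All 3 treated libraries were lower than both controls, with a log2 fold change of -0.62 ± 0.14. Ndufaf7, an assembly factor of respiratory complex I, was also lower in all 3 treated libraries, at 11.3, 14.6 and 16.1 CPM, against 32.5 and 17.8 CPM at 0 µM. For both genes the GRC321 control was the highest of the 5, above the 17.3 to 22.2 CPM (Rxylt1) and 16.3 to 22.2 CPM (Ndufaf7) of the other GRC321 0 µM libraries.

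Phyhip, which encodes a protein that binds phytanoyl-CoA hydroxylase, showed the other pattern. It had 24.1, 13.2 and 18.9 CPM at 10 µM, against 7.81 and 5.56 CPM at 0 µM, a log2 fold change of 1.54 ± 0.39. Both controls were low and all treated libraries higher, yet the difference did not grow with concentration: the log2 fold change was 1.56 at 1 µM and 1.55 at 3 µM. The 0 µM libraries of the other compounds held 8.51 to 38.0 CPM, so that both cypermethrin controls lay under every other 0 µM library.

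Camkk1, the kinase that switches on the calcium/calmodulin-dependent kinases I and IV, had 40.9, 63.1 and 58.7 CPM at 10 µM, against 31.2 and 40.2 CPM at 0 µM. The lowest treated library lay just above the highest control. The log2 fold change was 0.20 at 1 µM, 0.17 at 3 µM and 0.52 ± 0.13 at 10 µM, and within each library series the 10 µM library was above both lower concentrations. Its gene model overlaps Itgae.

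Isl1, a LIM-homeodomain factor of motor and striatal neurons, was scarce: 3.21, 1.05 and 1.13 CPM at 10 µM, against 0.335 and 0.269 CPM at 0 µM. Both controls were lower than every treated library, though 4 other GRC321 0 µM libraries held 0.797 to 2.49 CPM. Ccnt1, the cyclin of the elongation factor P-TEFb, had 7.57, 5.24 and 3.92 CPM at 10 µM, against 19.4 and 9.05 CPM at 0 µM, with a log2 fold change of -1.21 ± 0.32. The GRC321 control was above the 10.2 to 14.1 CPM of the other GRC321 0 µM libraries. Of the remaining members, Pianp was higher (0.67 ± 0.17), and Chn2 (-0.61 ± 0.16), Pcdhb9 (-0.71 ± 0.19), Rala (-0.68 ± 0.18) and Maats1 (-1.26 ± 0.33) were lower on the log2 scale. In all 5 of these the GRC321 control lay outside the other GRC321 0 µM libraries on the side that widens the difference: Pianp had 27.6 CPM there against 43.5 to 45.6 CPM, Chn2 56.9 against 31.3 to 39.9 CPM, Pcdhb9 28.6 against 12.1 to 20.1 CPM, Rala 58.7 against 30.6 to 40.7 CPM and Maats1 6.36 against 1.24 to 3.77 CPM.

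Which differences hold in both projects was read in 2 ways. In a fit of the GRC327 libraries alone, 0 genes passed the edgeR test and 288 (1.9% of 15171) had an unadjusted p under 0.05. Of these 288, 46.9% had the same sign in the GRC321 pair, against 46.8% of the other genes, 2 shares that are close to each other. That GRC327 fit had only 0 µM replicate 2, of the later series, as its control, and no library series term. The 10 µM libraries of both GRC327 series were set against it, so differences between the series enter the fit. The 46.9% and 46.8% therefore cannot settle whether a change holds in both projects. Set against the 0 µM library of its project, each of the 3 treated libraries differed in the same direction in 29.6% of tested genes, 14.4% higher and 15.2% lower. Both GRC327 differences use the same 0 µM library, so they are not independent and this share says nothing on whether a change holds in both projects. The second reading set the GRC321 pair beside the later GRC327 pair, each 1 library at 10 µM and 1 at 0 µM, over 13306 genes with a mean of at least 1 CPM. A difference of at least 1.5-fold was seen in 26.6% of genes in the GRC321 pair and in 7.01% in the GRC327 pair. It was in the same direction in both for 94 higher and 86 lower genes (1.35% together), and in opposite directions for 304. The 1.5-fold rule was set after the data were seen, and with 1 library a group these counts carry no test.

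**Figure D2:**
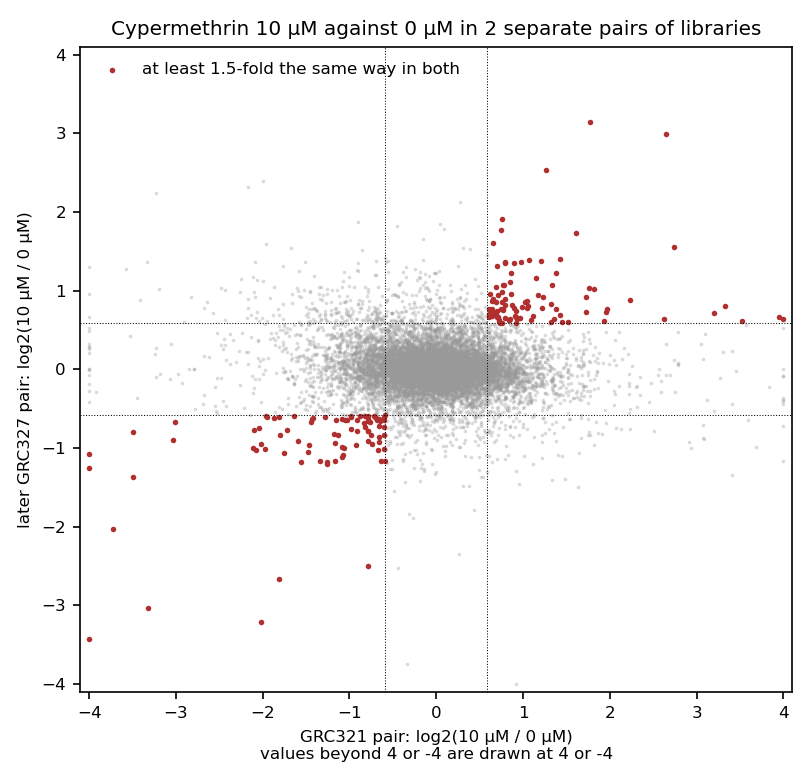
Log2 ratio of 10 µM over 0 µM cypermethrin for each of 13306 genes, in the GRC321 pair of libraries (horizontal) and the later GRC327 pair (vertical), with dotted lines at 1.5-fold and values beyond 4 or -4 drawn at the edge. The cloud is wider along the GRC321 axis (SD 0.68) than along the GRC327 axis (SD 0.33), and red points are the 180 genes past 1.5-fold the same way in both.

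Of the genes past 1.5-fold in both pairs at a mean of at least 1 CPM, 37.2% went the same way, 180 against 304 opposite. Opposite changes and shares were not counted at the 5 CPM limit used next, so the genes below are values without a background. With a mean of at least 5 CPM, 14 genes were higher and 12 lower by 1.5-fold in both pairs, 6 and 6 of them with a gene symbol. The higher ones were Phyhip, Kcnn1, Crhr1, Rpl36a, Dusp14 and Fahd1, and the lower ones Ccnt1, Taf1a, Arl6ip4, Esco2, Plk3 and Ift74. Crhr1, the receptor for corticotropin-releasing hormone, had 13.9 and 9.13 CPM at 10 µM in GRC321 and in the later GRC327 series, against 7.92 and 5.74 CPM at 0 µM. The earlier GRC327 10 µM library held 6.29 CPM, between these controls and close to the later one. Dusp14, a phosphatase that acts on MAP kinases, had 7.83, 8.31 and 7.39 CPM at 10 µM, against 4.57 and 4.84 CPM at 0 µM, with no overlap. Taf1a, a subunit of the RNA polymerase I initiation factor, was lower in all treated libraries, at 5.65, 6.61 and 5.13 CPM against 9.04 and 8.07 CPM. Both genes were picked by their difference in these same pairs, so this separation follows largely from that choice and is no separate evidence. The 3 and 2 libraries did not overlap for 10.2% of all tested genes (5.41% higher and 4.8% lower). Rpl36a belongs to a gene family with many near-identical copies, so its counts are uncertain.

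Kcnn1 encodes SK1, a small-conductance potassium channel that opens on intracellular calcium and damps firing. It is listed at chr16:20336638-20348805 in the deposited table, whose genome build is not given in the sources used here. Its levels were 22.1, 20.8 and 16.8 CPM at 10 µM, against 8.70 and 9.32 CPM at 0 µM, or 19.9 ± 2.8 CPM (SD, n = 3) against 9.01 ± 0.44 CPM (SD, n = 2). Every treated library was well above both controls and above the 0 µM libraries of the other compounds, which held 7.71 to 14.5 CPM. The GRC321 control was a little under the other GRC321 0 µM libraries (9.47 to 14.5 CPM). The log2 fold change was 1.17 ± 0.31 with an adjusted p of 0.44 by the edgeR test, 1.33 in the GRC321 pair and 0.83 in the later GRC327 pair. It was 0.12 at 1 µM and 0.15 at 3 µM.

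Kcnq3 encodes a subunit of the M-current channel, which also restrains repetitive firing. It had 187, 173 and 153 CPM at 10 µM, against 96.7 and 104 CPM at 0 µM. The groups did not overlap, and the log2 fold change was 0.29 at 1 µM, 0.36 at 3 µM and 0.78 ± 0.24 at 10 µM. The GRC321 control lay under the 114 to 145 CPM of the other GRC321 0 µM libraries. Of 28 tested potassium channel genes, 0 passed the test and 2 had an unadjusted p under 0.05, against 7.2% of all tested genes, both of them higher. That count lay near the share over all tested genes. The median log2 fold change of the list was 0.05, against -0.002 over all tested genes.

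Because the 0 µM libraries are few and uneven, the 10 µM libraries were also set against the 1 and 3 µM libraries of the same 3 library series, which uses no cypermethrin control. This comparison was added after the data were seen and shares its 10 µM libraries with the comparison above. Of 24 delayed activity-regulated genes, 18 had a positive log2 fold change in it, led by Bdnf, Dusp5 and Ptgs2. No gene passed the edgeR test, in the fit reported or in any alternative tried, the smallest adjusted p was 0.449 (Kcnn1), and 558 genes (3.64%) had an unadjusted p under 0.05, 309 higher (2.01%) and 249 lower (1.62%). Of the 24, 11 were higher and 1 lower at an unadjusted p under 0.05, and the list's median log2 fold change was 0.29, against 0.005 over all tested genes. The 10 µM library was above both lower concentrations in every series in 11 of the 24, which was so for 4.89% of all tested genes. The list was drawn up with earlier results of these data known.

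**Figure D3:**
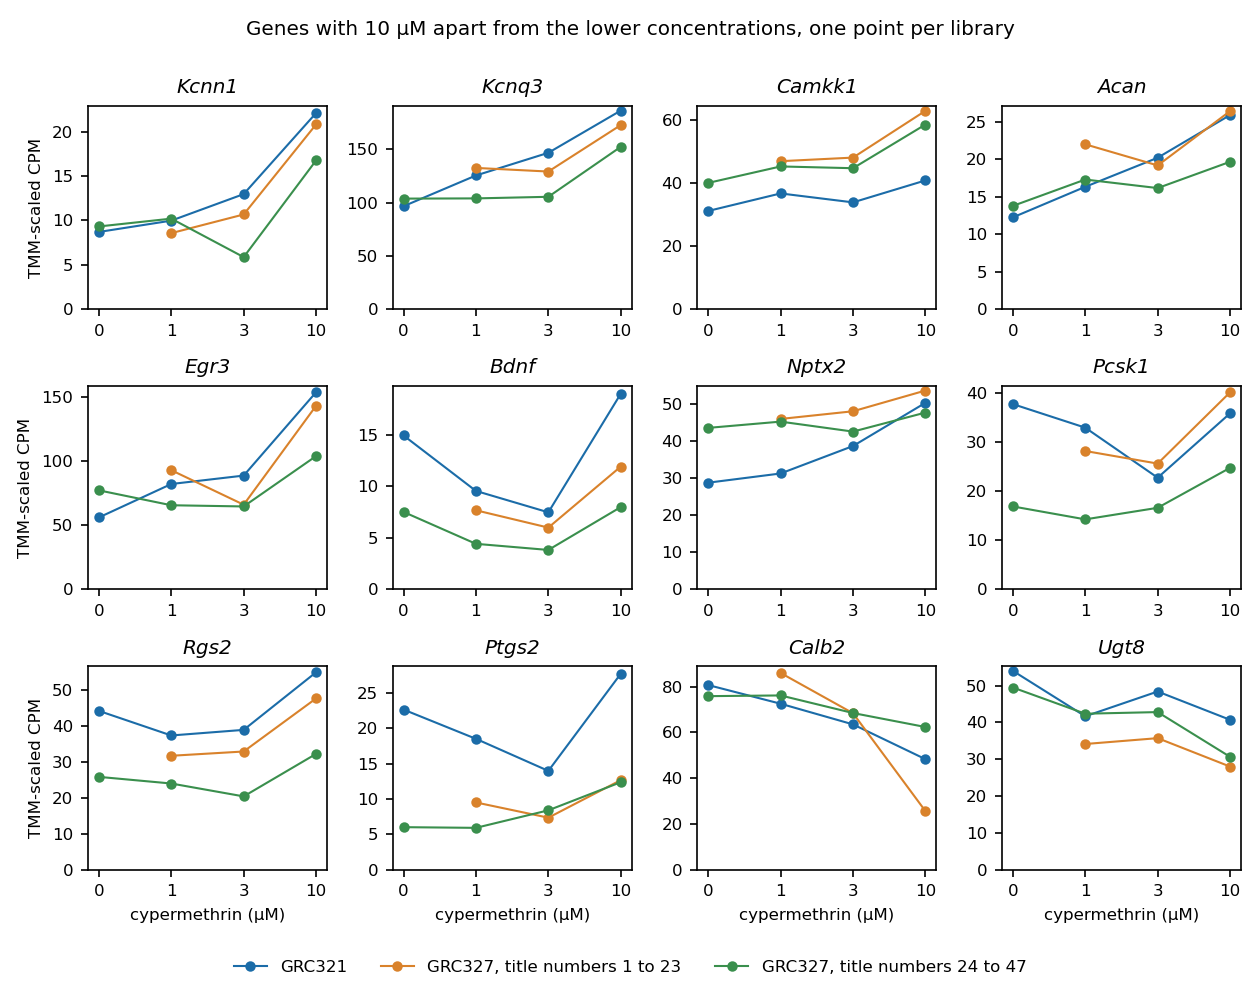
TMM-scaled CPM of 12 genes against cypermethrin concentration in µM, chosen after their values were seen. Each point is 1 library and lines join libraries of 1 series; in each panel the 10 µM point is the highest or the lowest of the 1, 3 and 10 µM points of its line, while several 0 µM points, as in Bdnf and Pcsk1, lie near the 10 µM level.

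The 12 genes of smallest p in this comparison, by the same filter and named after their values were seen, were Kcnn1, Rem2, Egr4, Rasgrp1, Bdnf, Fhl2, Rgs2, Stom, Egr3, Ptgs2, Calb2 and Scn4b. Rem2 encodes a GTPase that restrains calcium channels, Rasgrp1 an activator of Ras, and Scn4b an auxiliary sodium channel subunit. Within every series the 10 µM library was above both lower concentrations for 10 of these, and below both for Stom and Calb2. The shares over all tested genes were 4.89% above and 4.41% below. Because the 12 were chosen by p in this same comparison, their separation follows largely from that choice.

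Bdnf, the neurotrophin whose transcription follows calcium entry, had 19, 11.93 and 7.997 CPM at 10 µM in the 3 series. At 1 µM it had 9.56, 7.69 and 4.43 CPM, and at 3 µM 7.487, 6.004 and 3.835 CPM. Within each series the 10 µM library was highest of these 3 concentrations, with a log2 fold change of 0.98 ± 0.25. Against 0 µM (14.95 and 7.528 CPM) the log2 fold change was 0.34 ± 0.36, and the groups overlapped. The GRC321 control was higher than both GRC327 libraries at 10 µM.

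Egr3, an immediate early zinc-finger factor, stood apart in both comparisons. It had 154, 144 and 104 CPM at 10 µM, against 56.2 and 77.4 CPM at 0 µM, with a log2 fold change of 1.01 ± 0.30. At 1 µM it had 82.4, 93.2 and 65.8 CPM and at 3 µM 89.0, 66.2 and 64.8 CPM, so the 10 µM libraries were higher than all 8 others. The log2 fold change over 1 and 3 µM was 0.80 ± 0.22. The 0 µM libraries of the other compounds held 66.0 to 108 CPM, so the later GRC327 10 µM library lay within them and the GRC321 control below them.

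Among secreted and synaptic members of the delayed list, Pcsk1 (a prohormone convertase) had 35.9, 40.2 and 24.8 CPM at 10 µM, against 37.8 and 16.9 CPM at 0 µM. The GRC321 control was as high as the treated libraries, and the log2 fold change was 0.45 ± 0.28 over 0 µM and 0.55 ± 0.17 over 1 and 3 µM. Penk, the enkephalin precursor, was higher by 0.47 ± 0.22 over 0 µM and 0.49 ± 0.16 over 1 and 3 µM on the log2 scale. Nptx2, a pentraxin that gathers AMPA receptors at synapses, had 50.3, 53.6 and 47.7 CPM at 10 µM, against 28.8 and 43.6 CPM at 0 µM, with no overlap, while the other GRC321 0 µM libraries held 40.7 to 47.6 CPM. Its log2 fold change was 0.45 ± 0.16 over 0 µM and 0.28 ± 0.12 over 1 and 3 µM.

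Rgs2, which curbs G-protein signalling, had a log2 fold change of 0.54 ± 0.14 over 1 and 3 µM, and Ptgs2, the inducible cyclooxygenase, 0.73 ± 0.20. Cartpt, a neuropeptide precursor, was the 1 member lower at an unadjusted p under 0.05 (-0.71 ± 0.31). The immediate early list was less uniform. Over 1 and 3 µM, 3 of its 20 genes were higher at an unadjusted p under 0.05 (Egr3, Egr4 and Npas4). The share over all tested genes was 2.01%, and the list's median was 0.36. Fos, the prototype of the class, had 3.47, 10.4 and 2.04 CPM at 10 µM, against 3.79 and 3.59 CPM at 0 µM, and the groups overlapped.

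**Figure D4:**
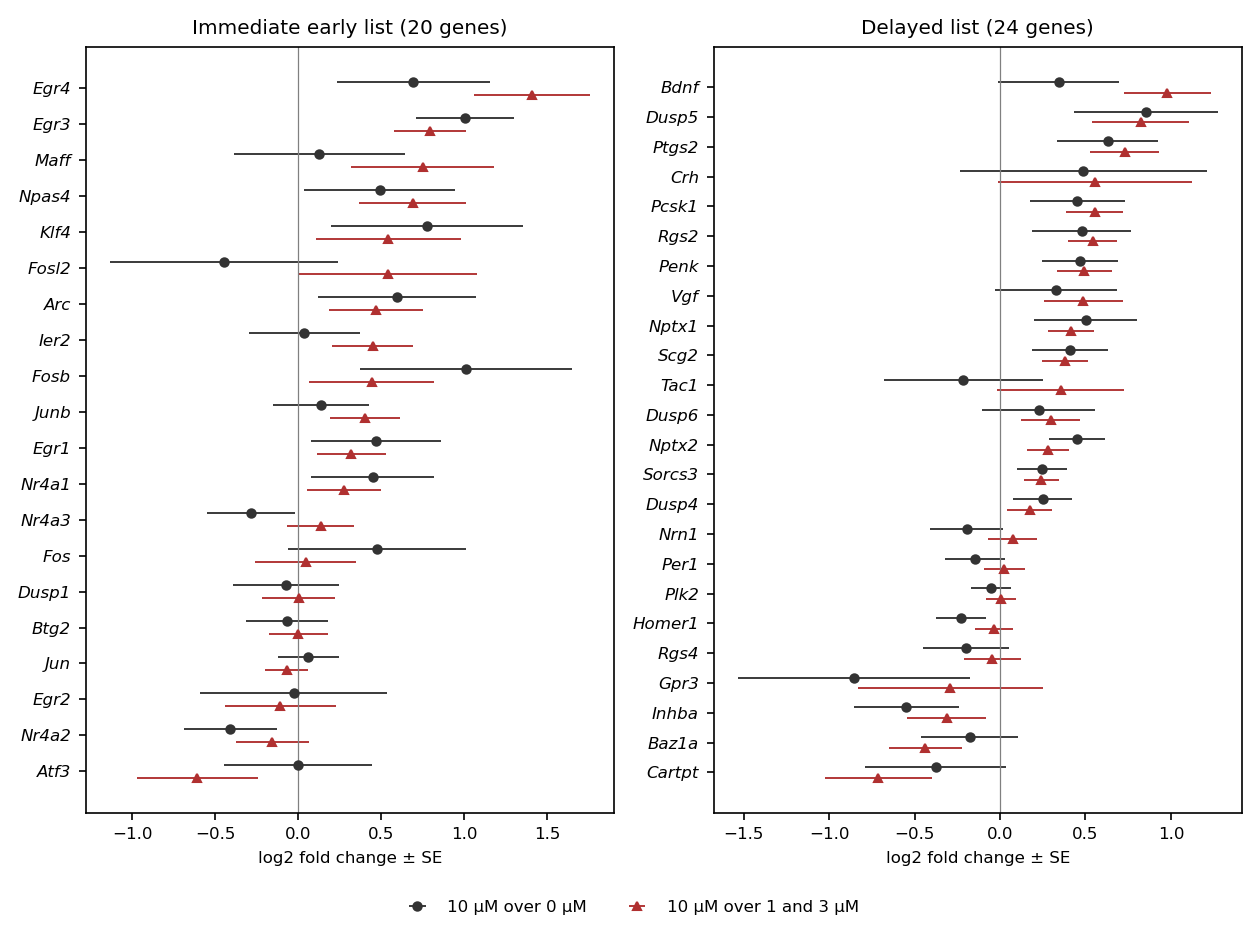
Log2 fold change ± SE of the tested genes of the immediate early list (left) and the delayed list (right), for 10 µM over 0 µM (circles) and 10 µM over 1 and 3 µM (triangles). Genes are ordered by the second comparison; Bdnf stands at 0.98 over 1 and 3 µM and at 0.34 over 0 µM, and neither comparison had a gene past the adjusted threshold.

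Against 0 µM the same 2 lists were less clear: 4 of the 24 delayed genes (Nptx2, Ptgs2, Penk and Dusp5) and 1 of the 20 immediate early genes (Egr3) were higher at an unadjusted p under 0.05, and none lower. Over all tested genes 3.42% were higher and 3.79% lower, so the immediate early count lay near that share. The delayed list's median was 0.25 in the model, but 0.03 in the GRC321 pair and 0.08 in the later GRC327 pair. It was 0.32 for the earlier GRC327 10 µM library, set against the 0 µM library of the later series. The immediate early median was 0.13 in the model, 0.20 in the GRC321 pair and -0.18 in the later GRC327 pair.

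The sodium channels are the direct targets of pyrethroids. Of 16 tested voltage-gated sodium channel genes, 0 passed the test, and the median log2 fold change was 0.16. Scn8a, the main axonal channel of mature neurons, had 218, 203 and 223 CPM at 10 µM, against 148 and 211 CPM at 0 µM, so the GRC321 control alone was low. The list's median was 0.48 in the GRC321 pair and 0.03 in the later GRC327 pair.

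Among 18 voltage-gated calcium channel genes, 4 were higher and 1 lower at an unadjusted p under 0.05, against 3.42% higher and 3.79% lower of all tested genes. Cacna1h, a low-voltage-activated T-type channel, had 91.9, 94.2 and 93.6 CPM at 10 µM, against 50.8 and 84.2 CPM at 0 µM, with no overlap and a log2 fold change of 0.44 ± 0.14. The other GRC321 0 µM libraries held 58.4 to 77.0 CPM of Cacna1h, above the GRC321 control. Cacna1a, the P/Q-type channel of presynaptic terminals, had 311, 254 and 246 CPM at 10 µM, against 150 and 257 CPM at 0 µM, and overlapped. The median of the list was 0.34 in the GRC321 pair and -0.001 in the later GRC327 pair. Cacna1h overlaps Tpsg1 and Grin3a overlaps Ppp3r2 in the deposited gene models, so their counts may be shared.

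Receptors and release genes gave no call. Among 15 GABA-A receptor genes the median log2 fold change was 0.02. Gabrd, a subunit of extrasynaptic receptors, had 25.3, 11.7 and 8.37 CPM at 10 µM, against 6.25 and 7.98 CPM at 0 µM, with a log2 fold change of 1.02 ± 0.39. All 3 treated libraries were above both controls, and the other GRC321 0 µM libraries held 20.01 to 21.79 CPM. Of 16 ionotropic glutamate receptor genes, 12 had a positive and 4 a negative log2 fold change, and 1 had an unadjusted p under 0.05, Grin3a (-0.43 ± 0.17), which encodes a modulatory NMDA receptor subunit. Of 25 presynaptic vesicle genes, 18 values were positive and 7 negative, and 3 were higher and 2 lower at an unadjusted p under 0.05, among them the synaptotagmin gene Syt4 at 586, 476 and 628 CPM at 10 µM, against 1150 and 627 CPM at 0 µM. Of 25 calcium handling genes, 17 values were positive and 8 negative, and 1 was higher and 2 lower at an unadjusted p under 0.05. The shares over all tested genes, for this and the lists above, were 3.42% higher and 3.79% lower.

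Calb2, which encodes the calcium buffer calretinin of a class of interneurons, was lower in every treated library. It had 48.3, 25.6 and 62.3 CPM at 10 µM, against 80.7 and 75.8 CPM at 0 µM, with a log2 fold change of -0.79 ± 0.26. At 1 µM the log2 fold change was -0.003 and at 3 µM -0.23, and over 1 and 3 µM the 10 µM libraries differed by -0.71 ± 0.20. The 0 µM libraries of the other compounds spanned 51.8 to 122 CPM, and both controls lay within that span, as did the later GRC327 10 µM library.

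Of 17 tested GABAergic genes, Sst and Gad1 were higher and Calb2 and the neuropeptide gene Vip lower at an unadjusted p under 0.05, against 3.42% higher and 3.79% lower of all tested genes. Gad1, which makes GABA from glutamate, had 215, 279 and 189 CPM at 10 µM, against 207 and 147 CPM at 0 µM, and the groups overlapped across projects. Sst, the somatostatin precursor of another interneuron class, had 137, 136 and 97.7 CPM at 10 µM, against 115 and 67.8 CPM at 0 µM, and also overlapped. Over 1 and 3 µM the log2 fold change was 0.29 ± 0.11 for Gad1 and 0.48 ± 0.15 for Sst. In that comparison 6 of the 17 tested GABAergic genes (Sst, Gad1, Gad2, Lhx6, Slc32a1 and Reln) were above both lower concentrations in all 3 series, against 4.89% of all genes.

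Of 16 pan-neuronal genes, 4 were lower at an unadjusted p under 0.05 (Elavl4, Tubb3, Nefl and Nefh), against 3.79% of all tested genes. Tubb3, the neuronal tubulin, had 466, 300 and 403 CPM at 10 µM, against 839 and 411 CPM at 0 µM, and only the GRC321 control stood high, above the 418 to 546 CPM of the other GRC321 0 µM libraries. Among 14 tested glutamatergic genes, 1 was higher and 1 lower (Neurod1) at an unadjusted p under 0.05. The shares over all tested genes were 3.42% and 3.79%. Log2 fold changes of the 14 were positive in 5 and negative in 9, with a median of -0.05. Neurod1, a factor of differentiating glutamatergic neurons, had 24.6, 9.51 and 13.1 CPM at 10 µM, against 52.3 and 14.5 CPM at 0 µM, and the groups overlapped. The other GRC321 0 µM libraries held 21.9 to 25.7 CPM of Neurod1.

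Among 17 tested oligodendrocyte lineage genes, 3 were lower and 0 higher at an unadjusted p under 0.05, the myelin genes Ugt8 and Mbp among them. The shares over all tested genes were 3.79% lower and 3.42% higher. Within the list 12 log2 fold changes were negative and 5 positive. Ugt8, which makes the myelin lipid galactosylceramide, had 40.7, 28.0 and 30.6 CPM at 10 µM, against 54.0 and 49.5 CPM at 0 µM, with no overlap and a log2 fold change of -0.62 ± 0.24. The other GRC321 0 µM libraries held 31.9 to 52.3 CPM of Ugt8, a range that takes in the 10 µM library of that project and lies under its control. Mbp, myelin basic protein, had 46.1, 52.8 and 81.9 CPM at 10 µM, against 59.5 and 143 CPM at 0 µM, and was lower at 10 µM in each project. The summed oligodendrocyte markers overlapped, at 1470 to 1660 CPM at 10 µM and 1490 to 1930 CPM at 0 µM. In bulk RNA, fewer oligodendrocytes and less RNA per cell cannot be told apart. Of 17 tested genes of the lineage, 0 passed the test, and the median was -0.19. That median was 0.12 in the GRC321 pair and -0.28 in the later GRC327 pair, so its sign differed between projects. Set against 1 and 3 µM, the 10 µM libraries of all 3 series were below both lower concentrations for 4 of the 17. Ugt8, Mbp and Enpp6 were among these, and the share over all genes was 4.41%. In 0 of the 17 were they above both in all 3 series, and the lineage median was 0.004.

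The other cell types of the culture gave no call. The 18 astrocyte genes had a median of -0.02, with 2 lower at an unadjusted p under 0.05, against 3.79% of all tested genes. Slc1a3, the glial glutamate transporter GLAST, had 514, 505 and 434 CPM at 10 µM, against 1070 and 447 CPM at 0 µM, so the GRC321 control was again alone, above the 508 to 645 CPM of the other GRC321 0 µM libraries. Summed vascular and fibroblast markers spanned 10.1 to 60.4 CPM at 10 µM and 8.79 to 76.1 CPM at 0 µM, with the library series rather than the concentration: Col1a1 in the cypermethrin libraries was 0.447 to 1.80 CPM in GRC321, 3.48 to 3.95 CPM in the earlier and 28.7 to 47.6 CPM in the later GRC327 series. The choroid plexus gene Aqp1 was at 1.03, 1.05 and 0.604 CPM at 10 µM and had no reads in either 0 µM library, where the other GRC321 0 µM libraries held up to 0.215 CPM and the later GRC327 ones 0.266 to 0.999 CPM. Tmem212, an ependymal marker, was at 0 in all 5 libraries, and no microglial or erythroid marker was tested.

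**Figure D5:**
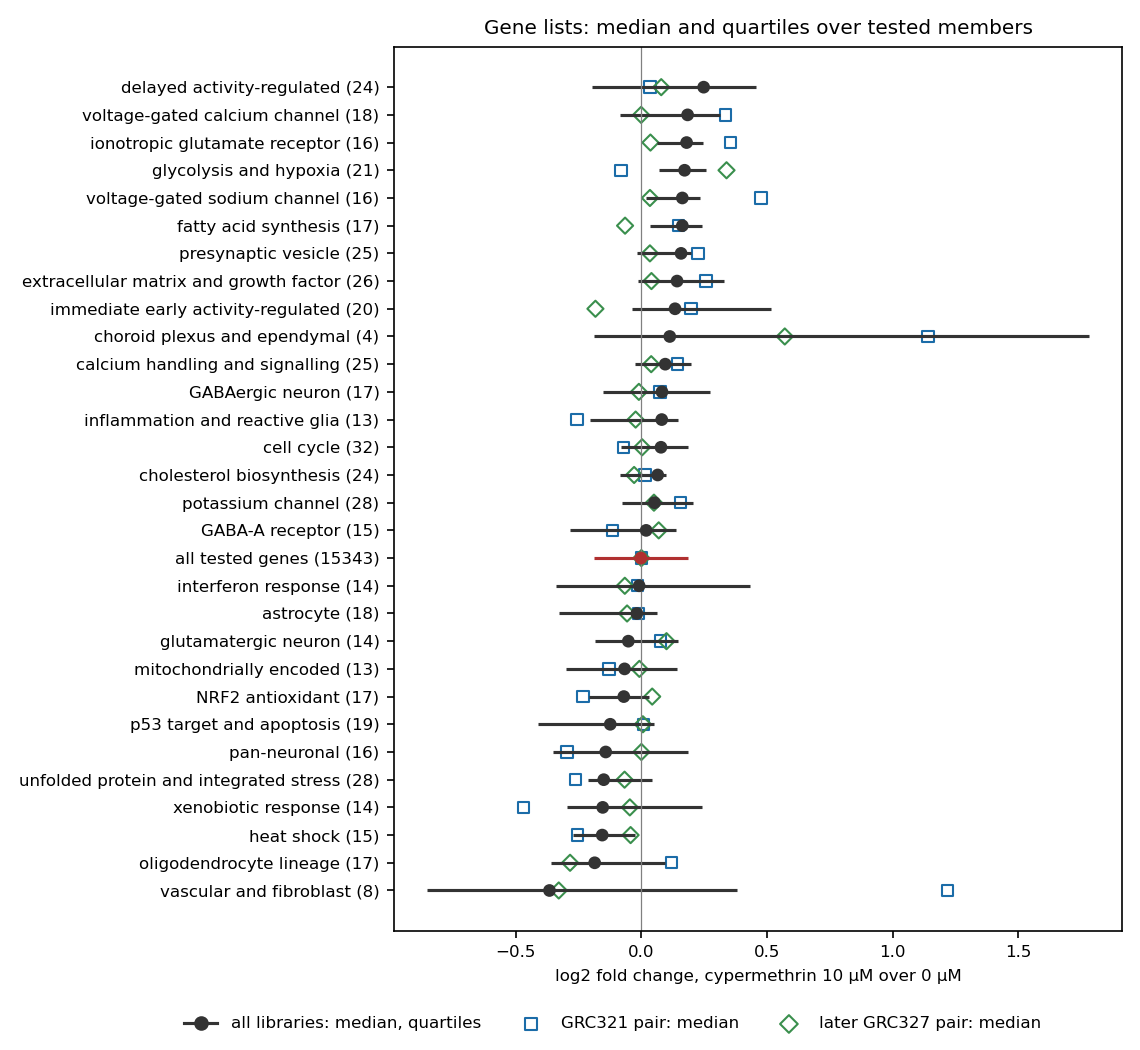
Median (circle) and quartiles (line) of the fitted log2 fold change, 10 µM over 0 µM, over the tested members of each gene list, with the number of genes in brackets and all tested genes in red. Squares and diamonds give the median in the GRC321 pair and in the later GRC327 pair; for the sodium channel list they stand at 0.48 and 0.03.

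Stress and metabolic lists held no called gene. The unfolded protein and integrated stress list had a median of -0.15 over 28 genes. In it 2 were lower at an unadjusted p under 0.05 (Canx and Pdia6), against 3.79% of all tested genes. Over 1 and 3 µM, 6 of the 28 were lower at an unadjusted p under 0.05, against 1.62% of all tested genes. They were Trib3, Slc7a5, Asns, Psat1, Phgdh and Slc3a2, targets of the factor ATF4. Such targets serve amino acid synthesis and uptake or, in Trib3, its feedback. Asns, asparagine synthetase, had 144, 88.4 and 89.5 CPM at 10 µM, against 174 and 95.4 CPM at 0 µM. In 10 of the 28 the 10 µM library was below both lower concentrations in all 3 series, against 4.41% of all genes, and so it was in 6 of the 32 cell cycle genes.

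No other stress list had more than 1 member at an unadjusted p under 0.05 on either side over 0 µM, except the p53 target and apoptosis list of 19. There 1 was higher (Zmat3) and 3 were lower, Fas and Gadd45a among them. The shares over all tested genes were 3.42% and 3.79%. Without 0 µM replicate 1 the log2 fold change of Canx was 0.01. Of 14 xenobiotic response genes, Abcc2, an export pump for conjugates, was higher (0.79 ± 0.29). None of 17 NRF2 antioxidant genes, 15 heat shock genes, 13 inflammation genes or 14 interferon genes had an unadjusted p under 0.05 over 0 µM. The same held for 24 cholesterol biosynthesis genes, 21 glycolysis and hypoxia genes and 32 cell cycle genes. In the fatty acid synthesis list 1 of 17 was lower (Mid1ip1), and of 13 mitochondrially encoded genes 1 was lower (Mt-nd3, -0.51 ± 0.24). Mt-nd3 had 1543, 316 and 334 CPM at 10 µM, against 2909 and 350 CPM at 0 µM, so its level followed the library series.

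In the matrix and growth factor list of 26 genes, 1 was higher and 1 lower at an unadjusted p under 0.05. The shares over all tested genes were 3.42% and 3.79%. Acan, which encodes aggrecan of perineuronal nets, had 25.9, 26.5 and 19.7 CPM at 10 µM, against 12.3 and 13.8 CPM at 0 µM. The groups did not overlap, and the log2 fold change was 0.51 at both 1 and 3 µM and 0.87 ± 0.28 at 10 µM. Igfbp3, a carrier of insulin-like growth factors, had 14.1, 6.85 and 12.4 CPM at 10 µM, against 30.9 and 11.7 CPM at 0 µM, and overlapped.

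The lower concentrations gave no call either. At 1 µM, 0 genes passed the edgeR test (DESeq2 1, limma 0) and 774 (5.04%) had an unadjusted p under 0.05. At 3 µM, 0 passed (DESeq2 1, limma 1) and 933 (6.08%) did. Without 0 µM replicate 2 the counts of calls were 84 at 1 µM and 314 at 3 µM, and without 0 µM replicate 1 both were 0.

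Cypermethrin was last set beside deltamethrin at the same 10 µM, each over its own 0 µM libraries (3 and 3 for deltamethrin, 1 pair from GRC321). The difference between the compounds' effects passed the edgeR test for 0 genes (DESeq2 1, limma 0), and 1115 (7.27%) had an unadjusted p under 0.05. Deltamethrin itself had 0 called genes by the edgeR test and 760 (4.95%) at an unadjusted p under 0.05. Without cypermethrin 0 µM replicate 2 the difference was called for 297 genes, and without replicate 1 for 0. The 3 genes of smallest p were Tmco3, Rxylt1 and Efnb2, an ephrin ligand of neuronal and vascular guidance. For Tmco3 the cypermethrin effect was 0.90 and the deltamethrin effect -0.29 on the log2 scale, a difference of 1.18 with a 95% interval of 0.63 to 1.73. For Rxylt1 they were -0.62 and 0.18 (difference -0.80, interval -1.19 to -0.41), and for Efnb2 -0.40 and 0.17 (difference -0.57, interval -0.86 to -0.28), all with an adjusted p of 0.50.

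Egr3 had 67.8, 91.8 and 82.8 CPM in the 10 µM deltamethrin libraries, against 87.2, 74.0 and 84.6 CPM in their controls, with full overlap. Its effect was 1.01 ± 0.30 with cypermethrin and -0.00 ± 0.28 with deltamethrin, a difference of 1.01 with a 95% interval of 0.22 to 1.79 and an adjusted p of 0.59. Kcnn1 was 1.17 with cypermethrin and 0.58 with deltamethrin, and the interval of the difference was -0.25 to 1.42. Calb2 was -0.79 with cypermethrin and -0.87 with deltamethrin, at 15.7, 74.4 and 63.7 CPM in the 10 µM deltamethrin libraries, against 81.5, 80.5 and 81.5 CPM in their controls. The interval of its difference, -0.63 to 0.80, leaves room for effects that are alike or that differ by up to that much. Gad1 was 0.37 with cypermethrin and 0.56 with deltamethrin (interval of the difference -0.66 to 0.29).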

How the data were processed

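The deposited table gives expected counts per gene, made by the authors from poly(A)-selected libraries; per the submitters' processing notes Partek and STAR were used, while versions, genome build and strand setting are not given in the sources used here. A second table of CPM, as deposited by the authors, served for the limma alternative alone. Expected counts (20.6% of values not whole, tolerance 1e-06) were rounded. edgeR 4.0.16 (R 4.3.3) fitted 15343 of 19771 genes (filterByExpr, minimum count 10, TMM) in 1 model over 71 libraries, with 25 groups and a project term per compound (40 residual degrees of freedom). A call is a Benjamini-Hochberg adjusted p under 0.05. SE is the log2 fold change divided by the square root of F, and intervals are 95%. DESeq2 1.42.0 and limma 3.58.1 (log2(CPM + 1)) were alternatives, besides DESeq2's size factors, no filter, a minimum count of 50, other batch terms, other sets of libraries and leaving out each library. The fit was run on simulated counts. It called 20% of genes changed by 0.5 on the log2 scale, 72% at 1 and 84% at 1.5 and at 2. The simulation held no differences between projects, series or compounds and no deviating control, so it does not cover these features of the data.

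Library differences use log2 CPM with a prior count of 2. Text genes are the 12 of smallest p, up to 4 of smallest p per list and the 3 of smallest p for the difference from deltamethrin. Genes past 1.5-fold in both pairs, genes called under an alternative, members shown over 1 and 3 µM and the genes of the plot by concentration were named after their values were seen. The comparisons, members and lists were chosen with earlier results of these data known. Replicates are numbered by accession order and pair nothing. Libraries are pools of wells from 2 cultures, and which culture each came from is not stated, so p-values measure the spread between these libraries, which may be technical. Some genes are not reported here.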

Additional observations from a re-analysis of the deposited data

How the results depend on the processing

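Gene settings kept their direction and side of the threshold in 2102 cases for 10 µM over 0 µM, became a call in 24 and reversed in 50; the 168 for 10 µM over 1 and 3 µM all kept theirs. The cause was not tested. The settings with a library series term, the comparison with 1 and 3 µM and the leave-outs of deltamethrin, 1 µM and 3 µM libraries were chosen after seeing the data. No paired analysis was possible because the labels carry no replicate numbers and the numbers used here follow accession order; batches entered as the project or library series term instead.

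Against 0 genes called at 10 µM, DESeq2 called 1 (AC133270.1), cypermethrin libraries alone 1 (LOC100362366), and all 0 µM libraries as control with a library series term 4 (Camkk1, Kcnn1, Nptx1 and Rasgrp1). At 3 µM DESeq2 and limma called 1 each, at 1 µM DESeq2 1, and for the difference from deltamethrin DESeq2 1. Leaving out 1 library gave 0 to 386 calls at 10 µM, 0 to 314 at 3 µM, 0 to 84 at 1 µM and 0 to 297 for the difference; without a 0 µM library the lone one left is assumed to vary like the other groups.

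Reversed log2 fold changes follow. With GRC327 alone they were 0.078 for Slc1a3, -0.032 for Cacna1a, -0.016 for Kcnc1, 0.053 for Gabra4, -0.039 for Atp2b2, 0.109 for Tiparp, 0.086 for Ugt1a6, 0.291 for Gclm, 0.071 for Canx, -0.125 for Dnajb1, -0.092 for Lss, -0.414 for Mt-co2 and 0.016 for Mt-nd2. With all 0 µM libraries as control, without and with the series term, they were -0.082 and -0.083 for Ccdc153, -0.046 and -0.044 for Gria4, 0.187 and 0.187 for Gclm, 0.009 and 0.016 for Mid1ip1, -0.048 and -0.048 for Mt-co2, and -0.108 and -0.112 for Ccnb1. Ttr was 1.556 with DESeq2, 0.078 with no project term, 0.004 with one project term and 0.826 with the series term, and Pdk1 was -0.024 with no project term. Leaving out 1 library, Slc1a3 ranged over -0.991 to 0.04, Pdgfrb -0.531 to 0.051, Col3a1 -2.957 to 0.432, Ccdc153 -0.237 to 0.616, Kl -4.019 to 0.072, Ttr -2.306 to 4.175, Kcnc1 -0.007 to 0.73, Gabra4 -0.732 to 0.03 and Tiparp -0.69 to 0.043. Likewise Ugt1a6 ranged over -0.806 to 0.053, Gclm -0.82 to 0.233, Canx -0.797 to 0.012, Dnajb1 -0.084 to 0.586, Lss -0.08 to 0.667, Thrsp -0.335 to 1.464, Mt-co2 -0.188 to 1.291 and Mt-nd2 -0.636 to 0.038. With 3 libraries against 2, small differences and scarce genes such as Ttr and Kl are the least certain.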
